A study of Homo sapiens with 6 samples.

Results

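The genes described here are 10 regulators that set the balance between an epithelial and a mesenchymal state: the transcriptional repressors and activators SNAI1, SNAI2, ZEB1, ZEB2, TWIST1 and TWIST2, the epithelial transcription factors GRHL2 and OVOL2, and the epithelial splicing factors ESRP1 and ESRP2. They were chosen by name, and each matched 1 of the 60664 Ensembl gene identifiers in the count table. Their RNA was measured by mRNA sequencing in 6 libraries of HCT8, an established human colorectal cancer cell line, cultured in DMEM with fetal bovine serum. The 3 control libraries, labelled WT, came from cells given a control plasmid. The 3 GPT1 libraries came from cells given a GPT1 overexpression plasmid, so that all 6 samples carried a plasmid. GPT1 (symbol GPT) is an alanine aminotransferase, and the series asked which signalling pathway it regulates. The labels give neither the promoter of the plasmid nor the time after transfection, and do not say whether the replicates were separate cultures. The p-values below therefore reflect only the spread among these 6 samples, and that spread may be technical.

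In epithelial cells, cadherin and tight junction proteins hold neighbouring cells together, and the SNAI, ZEB and TWIST factors lower the transcription of their genes, SNAI and ZEB factors by binding E-box sequences. GRHL2 and OVOL2 maintain the epithelial programme and are known to repress ZEB1, while the miR-200 family of microRNAs targets ZEB1 and ZEB2 RNA, and both ZEB factors in turn repress the miR-200 genes. ESRP1 and ESRP2 bind pre-mRNA and promote epithelial exon choice in genes such as FGFR2 and CD44, and ZEB1 and SNAI factors are known to repress ESRP1.

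The libraries held 21255655 to 32487217 counts, the shallowest being control replicate 3. GPT itself rose from 0.286 ± 0.153 CPM (counts scaled to a TMM-adjusted library size for single genes, and to the total count for sums over marker lists; SD, n = 3) in controls to a mean of 3347 CPM. Of the 12 colorectal epithelial markers listed, CDX2, VIL1, CDH17 and LGALS4 were present, whereas KRT20 had 0 to 5, CDX1 0 to 5 and GPA33 3 to 14 counts per library, so the colorectal label rests on part of that list. The summed level of the list was 894 to 1012 CPM in controls and 586 to 639 CPM in GPT1 libraries, most of it from the general epithelial keratins KRT8 (529 and 352 CPM) and KRT18 (261 and 171 CPM). Fibroblast markers summed to 22.2 to 26.1 CPM in controls and 21.0 to 23.2 CPM in GPT1 libraries, with FAP and THY1 at 0 in all. Endothelial markers stayed at or under 0.955 CPM and leukocyte markers at or under 0.825 CPM, whereas a list of neural and kidney-line genes summed to 463 to 575 CPM in controls and 231 to 239 CPM in GPT1 libraries. The neurofilament genes NEFM (292 and 104 CPM) and NEFL (152 and 83.1 CPM) carried most of that sum, and both fell (edgeR adjusted p = 1.69e-05 and 7.7e-05). MAP2 (5.34 and 2.09 CPM) and NCAM1 (59.0 and 40.7 CPM) fell as well (edgeR adjusted p = 0.00101 and 0.00477). PAX2, PAX8, LHX1 and TUBB3 did not pass the test (edgeR adjusted p = 0.536, 0.172, 0.128 and 0.442). The identity of the line was not tested. The part of these marker genes in the results below was not tested either.

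All 10 regulators passed the filter on low counts. OVOL2 passed only through its controls, as 3 control but 2 GPT1 libraries reached the filter's minimum of 0.321 CPM. With GPT1 overexpression, GRHL2, ZEB1 and SNAI2 fell, none of the 10 rose, and the other 7 did not pass the test (edgeR quasi-likelihood test, two-sided, Benjamini-Hochberg adjusted p below 0.05 over 17638 tested genes). At an unadjusted p below 0.05, 4 regulators were lower and 0 higher, and DESeq2 and limma voom likewise called 3 lower and 0 higher. At an unadjusted edgeR p below 0.05, 3993 of the 17638 tested genes were lower and 3076 higher. Over all tested genes 25.1% were called, 14.6% lower and 10.5% higher, against 3 of 10 regulators lower. The groups did not overlap for 6 regulators, 5 lower and 1 higher in GPT1 libraries, where 22.2% of tested genes were separated downward and 21.2% upward. OVOL2 is 1 of those 5. The median log2 fold change was -0.42 over the 10 regulators and -0.02 over all tested genes. The 3 genes that fell thus included mesenchymal factors (ZEB1, SNAI2) and an epithelial factor (GRHL2). In these bulk libraries, fewer cells of a type and less RNA per cell cannot be told apart.

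**Figure D1:**
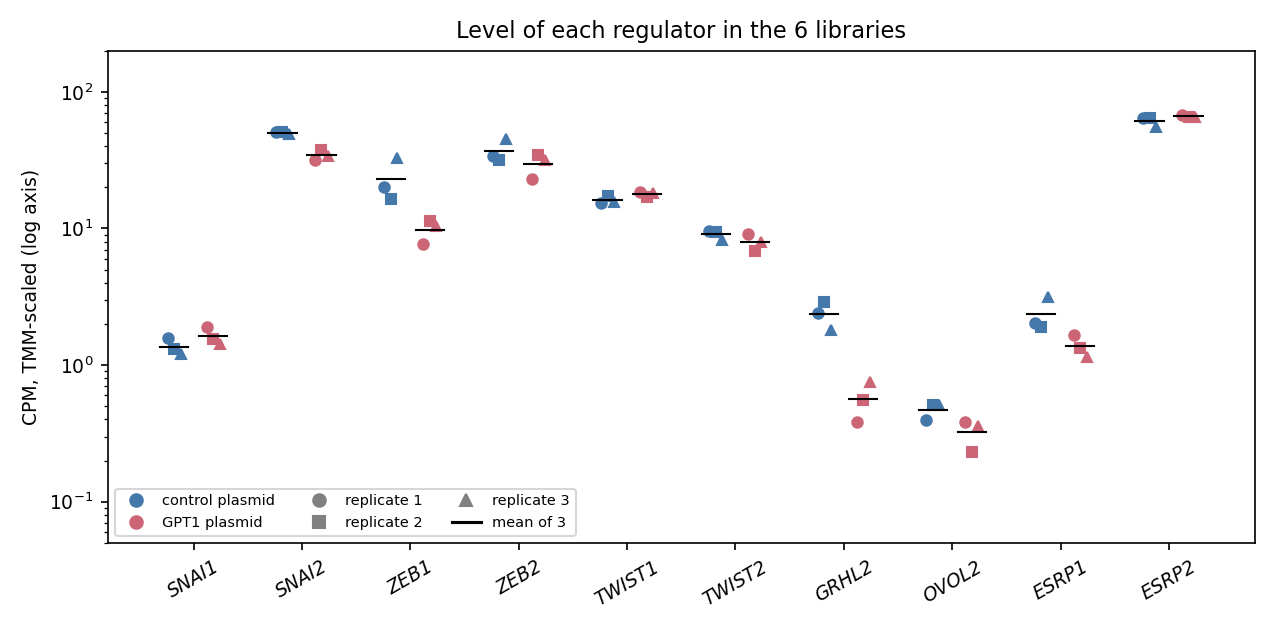
CPM of each regulator in every library on a log axis, with control and GPT1 libraries as separate points. GRHL2, ZEB1 and SNAI2 lie lower in all 3 GPT1 libraries than in any control library, whereas SNAI1, ZEB2, TWIST1 and TWIST2 overlap between the groups.

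ZEB1 (ENSG00000148516, GRCh38 chromosome 10, 31318495 to 31529814, plus strand), a zinc finger repressor of epithelial genes, was at 20.2, 16.4 and 32.7 CPM in control replicates 1 to 3 and at 7.73, 11.3 and 10.4 CPM in GPT1 replicates 1 to 3. The groups did not overlap, and control replicate 3 stood well above the other controls. The mean was 23.1 ± 8.54 CPM in controls and 9.81 ± 1.86 CPM with GPT1 (SD, n = 3), a log2 fold change of -1.23 ± 0.24 (SE; 95% interval -1.75 to -0.71; edgeR adjusted p = 0.00656). Without control replicate 3 the value was -0.89, with an edgeR adjusted p of 0.000619. Control replicate 3 was also the library in which gene level fell most with GC content (Spearman correlation across 17436 genes of -0.52; GPT1 replicate 1 was at 0.47), and the ZEB1 transcript has 38.5% GC. Across the same genes, the Spearman correlation with transcript length was 0.285, 0.065 and 0.297 in control replicates 1 to 3. In GPT1 replicates 1 to 3 it was -0.377, -0.135 and -0.238, so longer transcripts tended to lie lower there. Once transcript length and GC content had been corrected for, the log2 fold change of ZEB1 was -0.82 (edgeR adjusted p = 0.000601). ZEB1-AS1, an antisense gene that overlaps ZEB1, was at 15.8 CPM in controls and 12.4 CPM with GPT1 (log2 fold change -0.35 ± 0.13, edgeR adjusted p = 0.0782). No source names the strand mode used for counting, so reads from the overlap of the 2 genes cannot be told apart.

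ZEB2 (ENSG00000169554, chromosome 2, 144364364 to 144524583, minus strand), the paralogue of ZEB1 with the same target motif, did not pass the test. It was at 34.1, 31.8 and 45.3 CPM in controls and at 23.1, 34.3 and 31.7 CPM in GPT1 libraries, and the groups overlapped. Its log2 fold change was -0.32 ± 0.17 (95% interval -0.69 to 0.05; edgeR adjusted p = 0.183), and it turned to 0.13 after the length and GC correction. Within each library the ratio of ZEB2 to ZEB1, in TPM (counts per transcript length, scaled to a fixed sum per library), was 1.10, 1.27 and 0.906 in controls and 1.95, 1.98 and 1.99 in GPT1 libraries. That ratio separated the groups without overlap, also where exon union lengths replaced longest transcripts (0.478 to 0.671 in controls, 1.03 to 1.05 with GPT1). The ZEB1 and ZEB2 transcripts have like GC content, 38.5% and 39.1%, but differ in length, at 6267 and 9583 bases (exon union 8650 and 25058). The parts of GC content and length in this ratio were not tested.

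The miR-200 family is known to act on both ZEB transcripts, so its mature sequences are shown with the seed (bases 2 to 8) in capitals, 5′ to 3′, from RefSeq (GRCh38.p14). The first 3 share the seed AAUACUG and the last 2 share AACACUG:
hsa-miR-200b-3p: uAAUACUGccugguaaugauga
hsa-miR-200c-3p: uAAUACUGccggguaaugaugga
hsa-miR-429: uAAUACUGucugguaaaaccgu
hsa-miR-200a-3p: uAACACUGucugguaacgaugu
hsa-miR-141-3p: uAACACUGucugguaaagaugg
Letters complementary to the seeds, CAGTATT and CAGTGTT, were searched on the sense strand of the 3′ UTR of the longest transcript of each gene. ZEB1 held 6 and 3 such matches in 2549 bases, and ZEB2 held 5 and 4 in 5370 bases. Among 19578 genes, 15.6% held any CAGTATT and 17.7% any CAGTGTT, and 0.83% and 1.02% held 3 or more. The median 3′ UTR of those genes was 997 bases, shorter than that of either ZEB gene, and the shares were not matched for length. SNAI2 had 1 and 0, ESRP1 1 and 1 and GRHL2 0 and 1, while the other 5 regulators had 0 of both. An example from each ZEB gene, with the matching letters in capitals, is printed here in sense orientation (ZEB1 at chr10:31527618-31527640, plus strand, and ZEB2 at chr2:144389052-144389074, minus strand, GRCh38):
ZEB1 site: attgttttatcttatCAGTATTa
ZEB2 site: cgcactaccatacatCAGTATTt
Mature microRNAs were not measured by these mRNA libraries. Of 8 hairpin and host loci of the miR-200 and miR-205 families, 7 had 0 counts in every library, and MIR200CHG had 2, 1 and 0 counts in controls and 0 in each GPT1 library. A count of 0 allows up to 3 counts, or 0.0923 to 0.141 CPM of the total count. Whether depth or the type of library sets these zeros was not tested.

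SNAI2 (ENSG00000019549, chromosome 8, 48917604 to 48921740, minus strand), known as Slug, a zinc finger repressor that binds E-boxes, was at 50.7, 50.5 and 48.8 CPM in controls and at 31.8, 37.5 and 33.7 CPM in GPT1 libraries. All 3 GPT1 libraries lay below all 3 controls, and the controls were within a narrow range. The mean fell from 50.0 ± 1.04 to 34.4 ± 2.92 CPM (SD, n = 3), a log2 fold change of -0.54 ± 0.10 (95% interval -0.76 to -0.32; edgeR adjusted p = 0.0052). SNAI1 (ENSG00000124216, chromosome 20, 49982999 to 49988886, plus strand), known as Snail, was low in both groups. Its values were 1.59, 1.30 and 1.20 CPM in controls and 1.90, 1.54 and 1.44 CPM with GPT1, and they overlapped. Its log2 fold change was 0.24 ± 0.22 (95% interval -0.24 to 0.72; edgeR adjusted p = 0.432), with 26 to 59 counts per library.

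The basic helix-loop-helix factors TWIST1 (ENSG00000122691, chromosome 7, 19020991 to 19117672, minus strand) and TWIST2 (ENSG00000233608, chromosome 2, 238848032 to 238910543, plus strand) did not pass the test. TWIST1 was at 15.5, 17.2 and 15.5 CPM in controls and at 18.6, 16.9 and 18.3 CPM with GPT1. TWIST2 was at 9.57, 9.46 and 8.19 CPM in controls and at 9.11, 6.82 and 8.01 CPM with GPT1. The groups overlapped for both genes. The log2 fold change was 0.16 ± 0.11 for TWIST1 (95% interval -0.09 to 0.41; edgeR adjusted p = 0.319). It was -0.19 ± 0.14 for TWIST2 (95% interval -0.51 to 0.13; edgeR adjusted p = 0.35), and -0.34 with an edgeR adjusted p of 0.0268 after the length and GC correction.

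GRHL2 (ENSG00000083307, chromosome 8, 101492432 to 101669726, plus strand), a grainyhead factor that activates CDH1 and other junction genes, had the largest change of the 10. Its counts were 79, 92 and 39 in controls and 12, 17 and 23 in GPT1 libraries, or 2.42, 2.92 and 1.80 CPM against 0.386, 0.557 and 0.752 CPM. Every GPT1 library lay below every control. The mean fell from 2.38 ± 0.56 to 0.565 ± 0.183 CPM (SD, n = 3), a log2 fold change of -2.08 ± 0.29 (95% interval -2.71 to -1.45; edgeR adjusted p = 0.0011). The level was low throughout, and at 12 to 23 counts per GPT1 library the precision is limited by counting. OVOL2 (ENSG00000125850, chromosome 20, 17956979 to 18059188, minus strand), a zinc finger repressor of ZEB1, was lower still. It had 13, 16 and 11 counts in controls and 12, 7 and 11 counts in GPT1 libraries, or 0.397, 0.508 and 0.509 CPM against 0.386, 0.230 and 0.360 CPM. The scaled values did not overlap, although the raw counts did, and the log2 fold change was -0.52 ± 0.37 (95% interval -1.33 to 0.30; edgeR adjusted p = 0.316). No difference in OVOL2 was detectable at this depth. OVOL2 also overlaps SNX5 on the same strand, a gene at 171 CPM in controls and 138 CPM with GPT1, so reads of the 2 genes may not be fully separated.

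The splicing factors ESRP1 and ESRP2 differed in level. ESRP1 (ENSG00000104413, chromosome 8, 94641074 to 94707466, plus strand) was at 2.02, 1.91 and 3.15 CPM in controls and at 1.67, 1.34 and 1.14 CPM with GPT1, with all GPT1 libraries below all controls. Its log2 fold change of -0.74 ± 0.25 (95% interval -1.28 to -0.19) had an unadjusted p of 0.0129 and an edgeR adjusted p of 0.0509, just above the threshold. It passed without control replicate 2 (edgeR adjusted p = 0.033) and without the filter on low counts (edgeR adjusted p = 0.013). Without control replicate 3, the highest library, the value was -0.48 (edgeR adjusted p = 0.17). ESRP2 (ENSG00000103067, chromosome 16, 68229111 to 68238102, minus strand) was at 63.9, 64.2 and 55.1 CPM in controls and at 67.8, 65.6 and 65.3 CPM with GPT1. These groups did not overlap, but the log2 fold change of 0.12 ± 0.09 (95% interval -0.09 to 0.32) did not pass the test (edgeR adjusted p = 0.369). The ratio of ESRP2 to ESRP1 in TPM was 31.8, 33.8 and 17.6 in controls and 40.6, 49.0 and 57.3 with GPT1, without overlap. The transcript of ESRP1 has 42.8% GC and that of ESRP2 59.6%, and ESRP1 had only 35 to 68 counts per library. The ratio was not corrected for GC content, and the part of GC content in it was not tested. The other 3 ratios computed, ZEB1 to ESRP1, ZEB1 to GRHL2 and SNAI2 to ESRP1, overlapped between the groups. How often ratios of other gene pairs separate the groups was not computed. Among single tested genes, 22.2% were separated downward and 21.2% upward.

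**Figure D2:**
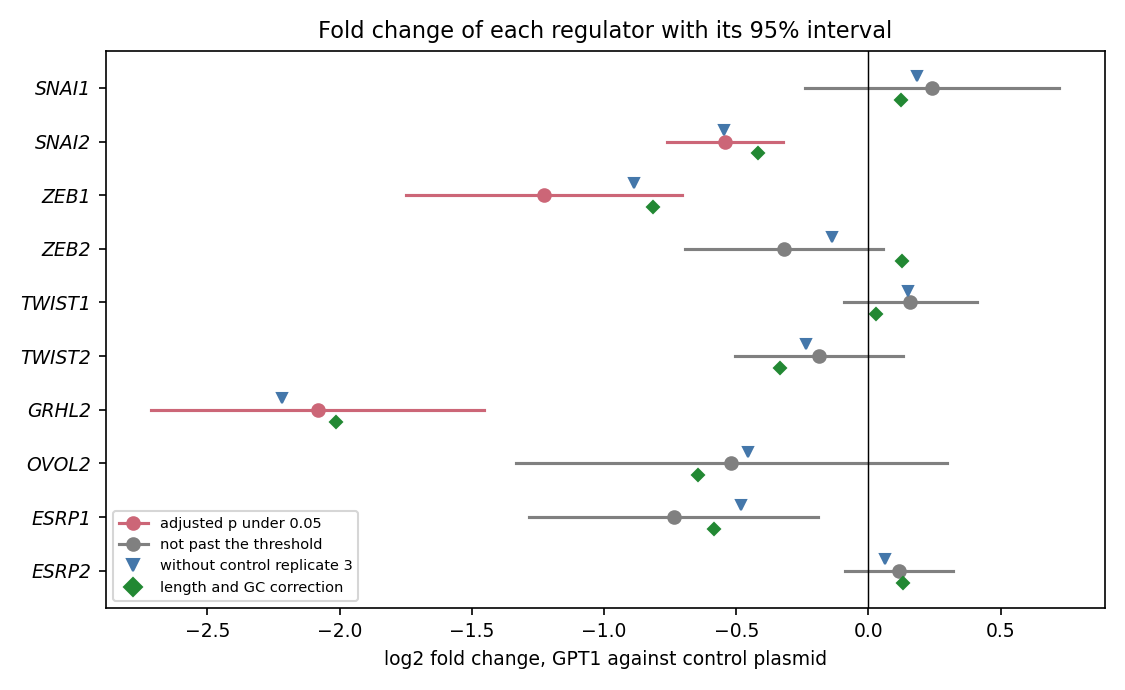
Log2 fold change of each regulator (GPT1 over control) with its 95% interval, with the values without control replicate 3 and after length and GC correction as triangles and diamonds. The intervals of GRHL2, ZEB1, ESRP1 and SNAI2 lie below 0, and ZEB2 is the regulator whose diamond moves to the other side of 0.

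**Figure D3:**
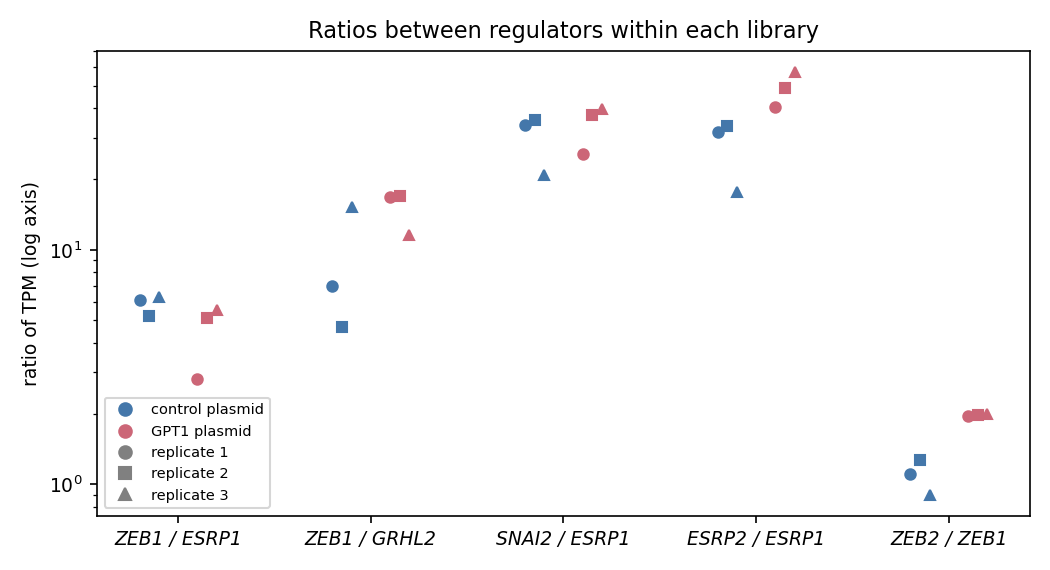
Ratios of TPM between pairs of regulators in each library. ESRP2 to ESRP1 and ZEB2 to ZEB1 separate the groups, and the other 3 ratios overlap. The share of other gene pairs that separate the groups was not computed.

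Levels of different genes were compared per length, in TPM based on the longest transcript. In controls SNAI2 had the highest mean, 46.3 TPM, ahead of ESRP2 at 42.0, TWIST1 at 25.2 and TWIST2 at 16.9 TPM. ZEB2 at 10.2 and ZEB1 at 9.72 TPM came next and overlapped. SNAI1 at 2.12, ESRP1 at 1.63 and GRHL2 at 1.18 TPM overlapped as neighbours, and OVOL2 was lowest at 0.792 TPM. With GPT1, ESRP2 was highest at 43.4 TPM, ahead of SNAI2 at 30.2 TPM, which overlapped TWIST1 at 26.7 TPM. TWIST2 stood at 14.1, ZEB2 at 7.72, ZEB1 at 3.90, SNAI1 at 2.39, ESRP1 at 0.903, OVOL2 at 0.518 and GRHL2 at 0.269 TPM. With exon union lengths ZEB1 stood above ZEB2 in controls, at 9.72 and 5.37 TPM, so the order of these 2 genes depends on the length used. ESRP2 and SNAI2 held the 2 highest means in both groups under either length.

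Genes known as targets that SNAI and ZEB factors repress were mostly lower in the GPT1 libraries. Of 30 such genes tested, 23 fell, 1 rose and 6 did not pass (edgeR adjusted p below 0.05), and the median log2 fold change was -1.09, beside -0.02 for all genes. The shares were 76.7% lower and 3.33% higher, beside 14.6% and 10.5% of all tested genes. CDH1, which encodes E-cadherin, fell from 50.1 ± 6.26 to 12.5 ± 1.74 CPM (log2 fold change -2.01 ± 0.14; edgeR adjusted p = 1.6e-05). The tight junction claudin CLDN4 fell from 27.3 to 5.68 CPM (-2.27 ± 0.12), and the keratin KRT19 fell from 51.2 to 11.4 CPM (-2.17 ± 0.13). EPCAM, an epithelial adhesion molecule, fell by 1.42 on the log2 scale, and the matriptase gene ST14 by 1.85. CRB3, a polarity gene, fell from 3.05 to 1.39 CPM (-1.13 ± 0.19). The tricellular junction gene MARVELD2 was the 1 that rose, from 10.5 to 13.6 CPM, and lost that call in 5 of the 6 fits that left out 1 library. Leaving out single libraries gave 18 to 22 lower genes. The list is defined by repression through these factors and was chosen with earlier results of these data known.

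**Figure D4:**
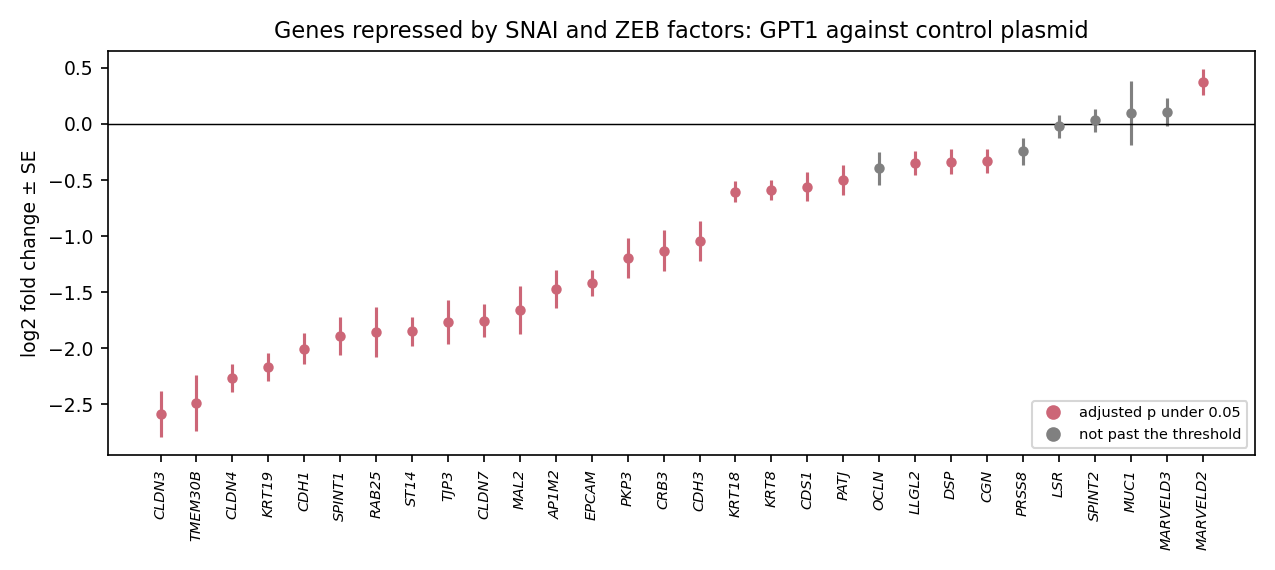
Log2 fold change (GPT1 over control) with SE for 30 genes that SNAI and ZEB factors are known to repress. Most points lie below 0, with CLDN3, TMEM30B, CLDN4, KRT19 and CDH1 lowest and MARVELD2 highest.

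The E-box letters that SNAI and ZEB factors bind, CAGGTG and its reverse complement CACCTG, were counted in RefSeq promoter windows (GRCh38.p14; from 250 bases before to 50 after the start) on both strands. Of the 30 targets 18 had an entry, and 13 of those (72.2%) held the motif, beside 24.1% of 27305 genes. Among the 13, 11 were called lower, with a median log2 fold change of -1.47. Among the 5 without it, 3 were called lower, with a median of -0.33, and they ran from CLDN4 at -2.27 to MARVELD2 at 0.37. CDH1, EPCAM and KRT19 had no entry. With the looser motif CANNTG, where N is any base, 16 of the 18 held a match (88.9%), beside 73.1% of genes. Whether the motif goes with a larger fall was not tested. These promoters are known for such E-boxes, so the share is a description of the list. Among the regulators ZEB1, ZEB2 and TWIST2 had entries; 2 of the 7 windows of ZEB1 held the motif and those of ZEB2 and TWIST2 did not. Stretches of 250 bases before a start are printed, 5′ to 3′ on the gene's strand with the E-boxes in capitals, because they hold several copies: ZEB1 (chr10:31318966-31319215, plus strand), CRB3 (chr19:6464021-6464270, plus strand) and CLDN7 (chr17:7262479-7262728, minus strand).
ZEB1 promoter: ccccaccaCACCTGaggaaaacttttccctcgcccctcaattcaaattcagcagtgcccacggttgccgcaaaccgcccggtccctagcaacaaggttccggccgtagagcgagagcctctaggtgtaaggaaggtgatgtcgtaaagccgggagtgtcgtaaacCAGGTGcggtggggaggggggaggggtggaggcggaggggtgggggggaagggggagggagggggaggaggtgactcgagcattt
CRB3 promoter: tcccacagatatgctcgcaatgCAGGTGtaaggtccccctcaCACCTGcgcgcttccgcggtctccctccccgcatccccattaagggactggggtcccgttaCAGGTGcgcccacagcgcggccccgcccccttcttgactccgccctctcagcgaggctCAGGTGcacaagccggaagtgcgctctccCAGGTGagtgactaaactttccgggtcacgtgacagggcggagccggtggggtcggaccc
CLDN7 promoter: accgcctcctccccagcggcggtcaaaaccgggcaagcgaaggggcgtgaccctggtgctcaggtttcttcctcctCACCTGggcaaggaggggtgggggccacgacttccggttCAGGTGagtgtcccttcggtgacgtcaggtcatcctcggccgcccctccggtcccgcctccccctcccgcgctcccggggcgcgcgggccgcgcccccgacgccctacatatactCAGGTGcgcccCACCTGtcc
ZEB1 had 2 copies, CRB3 5 and CLDN7 4 in the printed stretch. CLDN7, a claudin, fell from 10.9 to 3.23 CPM (log2 fold change -1.76 ± 0.15; edgeR adjusted p = 5.37e-05). A match of letters is a description and shows no binding.

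Other epithelial transcription factors were mostly lower as well. Of 15 tested, 9 fell (60%, beside 14.6% of all tested genes), 1 rose (6.67%, beside 10.5%) and 5 did not pass. The median log2 fold change was -1.17. EHF and ELF3, ETS factors of epithelia, both fell. EHF went from 8.17 ± 0.121 to 1.96 ± 0.284 CPM (-2.06 ± 0.15) and ELF3 from 5.57 to 1.36 CPM (-2.04 ± 0.16). HNF4A, a nuclear receptor of the gut and liver, fell from 2.98 to 1.02 CPM (-1.54 ± 0.20). Of the grainyhead and OVO paralogues, OVOL1 fell (-1.34 ± 0.43; edgeR adjusted p = 0.0438), at only 25, 27 and 15 counts in controls and 3, 14 and 11 with GPT1. GRHL1 was at 10.6 CPM in both groups (edgeR adjusted p = 0.966), and GRHL3 was at 1.73 CPM in controls and 2.56 CPM with GPT1 (edgeR adjusted p = 0.0811). GATA6 rose from 35.2 to 44.3 CPM (0.33 ± 0.11; edgeR adjusted p = 0.0406), a call lost in 4 of the 6 fits that left out 1 library. CDX2, the intestinal homeobox factor, was at 41.7 CPM in controls and 45.3 CPM with GPT1 (adjusted p = 0.448). Without GPT1 replicate 3, 5 of these factors were called lower. With only genes of at least 1 CPM in 3 libraries, 6 of 11 were called lower and the median was -0.36.

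Other factors of the mesenchymal transition were lower or did not pass: 9 of 25 fell and 0 rose (2 at an unadjusted p below 0.05; DESeq2 and limma voom also called 9 lower and 0 higher). The shares were 36% lower and 0% higher, beside 14.6% and 10.5% of all tested genes. SOX9 fell from 29.6 to 12.7 CPM (-1.23 ± 0.12), SOX4 from 172 to 114 CPM (-0.59 ± 0.09) and YAP1, the Hippo pathway coactivator, from 74.7 to 49.4 CPM (-0.60 ± 0.11). SNAI3, another Snail family gene, fell from 0.954 to 0.229 CPM (-2.06 ± 0.42; edgeR adjusted p = 0.00775), next to SNAI2 which fell and SNAI1 which did not pass. SNAI3 had 32, 36 and 16 counts in controls and 4, 12 and 5 with GPT1. GPT1 replicates 1 and 3 lay under the filter's minimum of 0.321 CPM, so SNAI3 was tested only because its controls passed the filter. The count was 4 without GPT1 replicate 3.

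Genes typical of mesenchymal cells fell more often than they rose. Of 20 tested, 7 fell (35%, beside 14.6% of all tested genes), 2 rose (10%, beside 10.5%) and 11 were not called. The median log2 fold change was -0.24, beside -0.02 for all tested genes. FN1, fibronectin, fell from 162 to 80.0 CPM (-1.02 ± 0.10) and MMP14, a membrane protease, from 5.42 to 2.38 CPM (-1.19 ± 0.17). COL6A3 rose from 2.08 to 5.71 CPM (1.46 ± 0.15). SPARC rose from 0.767 to 1.52 CPM (1.01 ± 0.25), a call lost when control replicate 1 or GPT1 replicate 1 or 3 was left out. The cytoskeletal gene VIM was at 1023 CPM in controls and 1040 CPM with GPT1 (0.02 ± 0.07; edgeR adjusted p = 0.835). CDH2, N-cadherin, was at 45.6 and 44.5 CPM (-0.04 ± 0.09; edgeR adjusted p = 0.795), and its sign depended on the scaling.

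**Figure D5:**
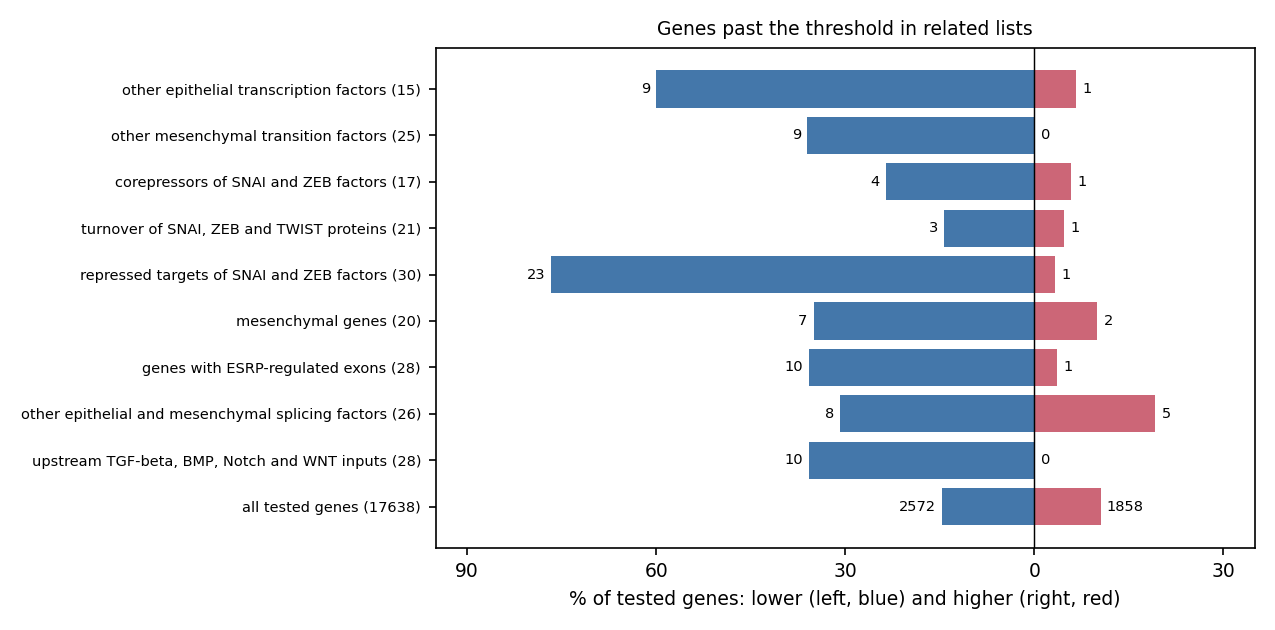
Share of tested genes called lower (left, blue) and higher (right, red) in each related list and over all tested genes, in percent, with the number of genes beside each bar and the number tested in brackets. The repressed targets have the longest bar to the left, 76.7%, against 14.6% of all tested genes, and the splicing factors the longest to the right, 19.2%, against 10.5%.

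Because the ESRP factors act on exon choice, which gene counts do not show, only the total level of genes with ESRP-regulated exons was available. Of 28 such genes 10 fell (35.7%, beside 14.6% of all tested genes), 1 rose (3.57%, beside 10.5%) and 17 were not called. The median log2 fold change was -0.25. KIF1B, a kinesin, fell from 119 to 79.9 CPM (-0.58 ± 0.11, and -0.33 with the length and GC correction), and EXOC7, an exocyst subunit, rose from 267 to 345 CPM (0.37 ± 0.09). The classical ESRP targets FGFR2, CD44 and CTNND1 did not pass: log2 fold changes were -0.26 ± 0.12, -0.38 ± 0.15 and -0.10 ± 0.14, with edgeR adjusted p values of 0.133, 0.081 and 0.616. Without GPT1 replicate 1 or 3 only 1 gene of the list was called lower and the call of EXOC7 was lost, without control replicate 1 there were 6, and the length and GC correction gave 7 lower and 4 higher.

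Among 26 other splicing factors linked to epithelial or mesenchymal exon use, 8 fell, 5 rose and 13 did not pass. The shares were 30.8% lower and 19.2% higher, beside 14.6% and 10.5% of all tested genes. MBNL2 fell from 21.1 to 8.56 CPM (-1.30 ± 0.20), PTBP3 from 73.4 to 36.6 CPM (edgeR adjusted p = 0.00366; log2 fold change -0.52 with the length and GC correction), and the quaking gene QKI fell by 0.60 on the log2 scale (edgeR adjusted p = 0.0101). HNRNPM, which promotes mesenchymal splicing and can oppose ESRP1, rose from 282 to 458 CPM (0.70 ± 0.11; edgeR adjusted p = 0.00208), and SRSF2 rose from 223 to 304 CPM (0.45 ± 0.09). RBM47, an epithelial splicing factor, did not pass (-0.19 ± 0.11; edgeR adjusted p = 0.237). The median was -0.10 and turned to 0.10 with the length and GC correction, which called 6 lower and 8 higher. Without GPT1 replicate 1 or 3 the list gave 6 lower and 3 higher genes.

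Signals that can act on the regulators, from the TGF-beta, BMP, Notch and WNT pathways, were lower or did not pass. Of 28 genes 10 fell and 0 rose (12 lower and 0 higher at an unadjusted p below 0.05; DESeq2 and limma voom called 10 lower and 0 higher). The shares were 35.7% lower and 0% higher, beside 14.6% and 10.5% of all tested genes. JAG1, a Notch ligand, fell from 17.5 to 9.75 CPM (-0.84 ± 0.12), AXIN2, a feedback target of WNT signalling, from 23.4 to 12.2 CPM (-0.95 ± 0.14) and BMP4, a ligand, from 23.6 to 13.9 CPM (-0.76 ± 0.12). The TGF-beta receptor gene TGFBR2 fell by 0.57 on the log2 scale (edgeR adjusted p = 0.00775). TGFB1, TGFB2 and TGFB3, the ligands, did not pass (edgeR adjusted p = 0.0693, 0.651 and 0.802). The count was 5 without GPT1 replicate 3 and 6 without control replicate 1, and the length and GC correction gave 11 lower and 5 higher.

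Corepressors that SNAI and ZEB factors recruit, and enzymes that modify or degrade the SNAI, ZEB and TWIST proteins, gave calls that depended on single libraries. Of 17 corepressors 4 fell and 1 rose: CTBP2, the C-terminal binding protein that ZEB factors bind, fell from 136 to 108 CPM (-0.33 ± 0.08), and HDAC1 rose from 278 to 352 CPM (0.34 ± 0.08). The shares of corepressors were 23.5% lower and 5.88% higher, beside 14.6% and 10.5% of all tested genes. The change of CTBP2 was lost with the length and GC correction (-0.06; edgeR adjusted p = 0.548). Without GPT1 replicate 1 or 3 the test called 0 of them in either direction, with 4 or 6 lower and 1 higher at an unadjusted p below 0.05. Of 21 turnover genes 3 fell and 1 rose: FBXO11, LOXL2 and FBXO45 fell and USP51 rose. These shares, 14.3% lower and 4.76% higher, lie at or below the 14.6% and 10.5% of all tested genes. Without control replicate 1 or GPT1 replicate 3 the test called 0 of those, with 5 lower and 1 higher at an unadjusted p below 0.05. Without GPT1 replicate 1 it called 1 lower. After the length and GC correction the calls were 1 lower and 7 higher for corepressors and 2 lower and 6 higher for turnover genes.

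The genes whose log2 CPM followed GRHL2 and SNAI2 most closely over the 6 libraries are given as a description, since the 2 groups alone can align genes that differ between them. For GRHL2 these were FOXA1 (Pearson r = 0.998), CALHM2 (0.998) and AMOT (0.995) among 11597 genes with a mean of at least 5 CPM. For SNAI2 they were GRIP2 (0.997), FAM72A (0.995) and CNTNAP2 (0.995) among 11596 genes. FOXA1, a pioneer factor of epithelia, moved from 17.0 to 13.2 CPM (log2 fold change -0.36 ± 0.12; edgeR adjusted p = 0.043), a call lost in 5 of the 6 fits that left out 1 library.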

How the data were processed

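mRNA libraries of 6 samples were deposited by the authors as raw read counts per gene, whole numbers for 60664 Ensembl identifiers, of which 60463 matched a GENCODE 29 symbol. Reads were aligned with HISAT2 2.0 to GRCh38, per the submitters' processing notes. For the counting tool, its annotation and its strand mode, no source used here gives a name. The test was run with edgeR 4.0.16 under R 4.3.3 (filterByExpr, TMM, quasi-likelihood F test, Benjamini-Hochberg over 17638 genes, threshold 0.05). The common biological coefficient of variation was 0.119. CPM and TPM were computed here from those counts, with TMM-scaled library sizes for the CPM of single genes and total counts for marker sums and for the floor of 3 counts. Replicates differed by a chi-square per degree of freedom of 9.98 to 30.8, so all libraries counted as separate samples. Also run were other scalings and filters, DESeq2 1.42.0, limma 3.58.1 (voom), a threshold of 0.01, GPT left out, a replicate block, each library left out, and a length and GC correction (mgcv 1.9.3). The edgeR test was tested on simulated data.

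The regulators and the related lists were chosen with earlier results of these data known. Named genes were the 10 regulators, GPT, CDH1, VIM and CDH2, up to 3 genes per list and direction with the smallest adjusted p, and the 3 genes most like GRHL2 and SNAI2. EPCAM, ST14, CRB3, CLDN3, CLDN7, TMEM30B, OVOL1, GRHL1, GRHL3, CDX2, SNAI3, FGFR2, CD44, CTNND1, QKI, RBM47, KRT8, KRT18, NEFM, NEFL, MAP2, NCAM1, TGFBR2 and the TGFB ligands were named after their values were seen. Some genes taken by the rule are not reported here. RefSeq tables gave promoters for 3 regulators (ZEB1, ZEB2 and TWIST2).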

Additional observations from a re-analysis of the deposited data

How the results depend on the processing

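SNAI2, ZEB1 and GRHL2 were called lower in all 17 alternatives, DESeq2 and limma voom among them, with log2 fold changes of -0.59 to -0.42, -1.43 to -0.82 and -2.34 to -1.87. The number of regulators called was 3 or 4 in every alternative and when any 1 library was left out (3 to 4). ZEB2 turned to 0.126 after the length and GC correction. CDH2 turned to 0.003 with upper quartile scaling and 0.075 with the length and GC correction, and ranged from -0.063 to 0.004 when 1 library was left out; the cause was not tested. Of 46 named genes called in the main comparison, 28 kept the call in all alternatives run, and 0 of the 46 reversed. FN1 and YAP1 kept theirs, with log2 fold changes of -1.079 to -0.685 and -0.664 to -0.397. Genes called over the whole table numbered 4430, 1172 at an adjusted p of 0.01, and 1443 to 4907 with 1 library left out. They numbered 1443 without GPT1 replicate 3, 1586 without GPT1 replicate 1 and 2565 without control replicate 1. The length and GC correction called 6109 genes, 57.2% of them higher, against 41.9% in the comparison as reported. Deviations from the group mean correlated at 0.141, -0.282 and -0.084 between same-numbered libraries, and at -0.318 to 0.387 between the others. With 3 libraries per group, these values cannot show whether the numbers pair the libraries. A fit with the replicate number as a block called 3886 genes and 3 regulators. With at least 1 CPM in 3 libraries OVOL2 was left untested. Depth limits OVOL2, GRHL2, ESRP1 and SNAI1, with 7 to 92 counts per library.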
